A study of Mus musculus with 4 samples.

Results

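The genes described here hold epithelium to the tissue beneath it: the laminin-332 chains Lama3 and Lamb3, the integrin subunits Itga6, Itgb4 and Itgb6, and the collagens Col17a1 and Col7a1. They were chosen by symbol from a list of 7 epithelial anchoring genes, and 7 of 7 were found among the 24972 rows of the deposited table. All 7 passed the filter on low values (a mean of at least 1 normalized count) and are among the 17979 genes fitted.

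Basal epithelial cells are riveted to the basement membrane by hemidesmosomes. In each of these, the integrin alpha6beta4 and the transmembrane collagen XVII bind laminin-332 on the outside and are tied by plectin and dystonin to keratin filaments on the inside. Collagen VII forms the anchoring fibrils that fasten the basement membrane to the mesenchyme, and integrin alphavbeta6 is an epithelial receptor that frees TGF-beta from its latent complex. In people, loss of laminin-332, collagen XVII or integrin alpha6beta4 causes junctional epidermolysis bullosa, blistering in which enamel is thin or pitted, loss of collagen VII causes the dystrophic form, and variants of ITGB6 or of one copy of LAMB3, LAMA3 or COL17A1 can give enamel defects without blistering. Ameloblasts, the epithelial cells that make enamel, express these genes in mouse tooth germs, and alpha6 and beta4 integrins are also made by Schwann cells and alpha6 by endothelium.

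RNA was measured in mandibular dental arches of mouse embryos at embryonic day 17.5. There were 2 libraries from embryos labelled Ascl5MutMut, homozygous for a variant of the basic helix-loop-helix gene Ascl5 (libraries 18 and 14, called mutant here), and 2 labelled Ascl5WTWT (libraries 15 and 20, wild type). The labels give no strain or effect of the variant on the protein, and do not say whether a library holds 1 embryo or several. The p-values thus measure only the spread between these libraries, part of which may be technical. Values are the authors' normalized counts, scaled between libraries but not by gene length, and each fold change is the mutant mean minus the wild-type mean of log2(value + 0.5).

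The normalized counts summed to between 22134483 and 22578580 per library, and the number of reads behind a value is not known from the table. Ascl5 itself was low, at 10.6 and 12.1 in mutant libraries 18 and 14, against 21.8 and 37.3 in wild-type libraries 15 and 20 (limma, adjusted p = 0.9999), and what the variant should do to its level is not stated. Mutant library 14 stood apart by salivary gland markers, whose 7 genes summed to 45.9 in mutant 18 and 6174.6 in mutant 14, against 21.7 in wild type 15 and 4.98 in wild type 20. Wild-type library 15 was the only one with a high Xist level and had the Y-linked gene Ddx3y at 0, so sex of the embryo also differed between libraries. The wild-type libraries thus did not come from the same embryos. Dental and jaw tissue was present in all 4, as the 7 dental mesenchyme markers summed to 4247 and 4532 in mutants, against 5319.8 and 6748 in wild type, and the 9 dental epithelium markers, which include the enamel matrix genes, to 7469.6 and 4173 in mutants, against 3792 and 9476 in wild type. None of these markers was at 0 in every library, while the salivary gene Smgc was at 0 in the wild-type libraries.

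None of the 7 genes passed the test of mutant against wild type. With limma and Benjamini-Hochberg adjustment over all 17979 genes, 0 of 7 had an adjusted p under 0.05 (0.0111% of all genes did), and 2 of 7, Lama3 and Col7a1, had an unadjusted p under 0.05 (4.27% of all genes did). That count was 0 without the mean-variance trend, with either epithelial scaling, without mutant library 14 or without wild-type library 15, and 1 without wild-type library 20. In 3 genes, Lama3, Col17a1 and Col7a1, both mutant libraries lay above both wild-type libraries, where 13.4% of all genes fitted did so, and in 0 genes did both lie below, where 14% did (27.4% in either direction). By the sign of the fold change 5 genes were higher in mutant, where 50.6% of all genes were, but with libraries scaled to equal basal epithelium markers 0 were, and with scaling to other epithelium markers 3 were. The median log2 fold change of the 7 was 0.14, beside 0.0025 over all genes fitted. The smallest two-sided p that exact permutation allows here is 0.333. Each smaller p given thus rests on the limma model, with its assumed distribution and its variance shared across genes.

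**Figure D1:**
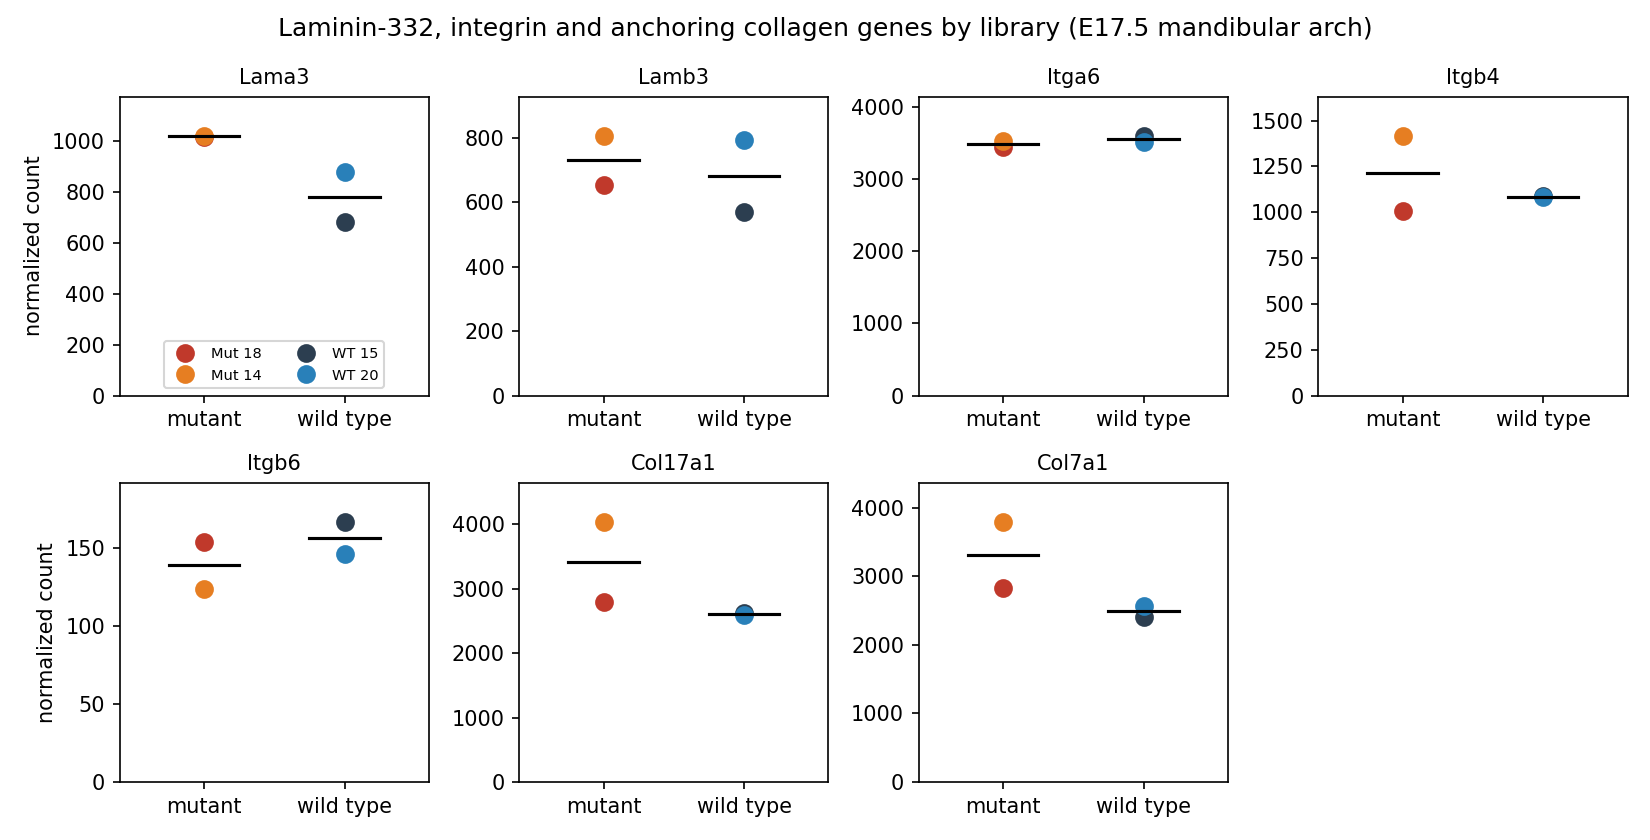
Normalized count (vertical axes, from 0) of each gene in each library, with mutant libraries left of wild-type libraries and a line at each genotype's mean of 2 libraries. Lama3, Col17a1 and Col7a1 have both mutant points above both wild-type points in these values, not scaled to epithelial markers, and Itga6 lies between 3437 and 3603 in all 4 libraries.

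Laminin-332 is a trimer of different chains, and the chains Lama3 and Lamb3 did not share one pattern. Lama3, the alpha3 chain (chromosome 18, 12333819 to 12583013 on GRCm38, plus strand), had 1012 and 1019.6 normalized counts in mutant libraries 18 and 14, against 681 and 878 in wild-type libraries 15 and 20. The mutant libraries were nearly equal and lay above both wild-type libraries, of which library 15 was the lower. The log2 fold change was 0.39 (SE 0.16, 95% interval 0.01 to 0.77, unadjusted p = 0.0439, limma adjusted p = 0.9999). Without wild-type library 15 it was 0.21 and without wild-type library 20 it was 0.58.

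Lamb3, the beta3 chain (chromosome 1, 193207699 to 193343878, plus strand), had 654 and 807 normalized counts in mutant libraries 18 and 14, against 569 and 793 in wild-type libraries 15 and 20. The genotypes overlapped, with 1 high and 1 low library in each. The log2 fold change of Lamb3 was 0.11 (SE 0.20, 95% interval -0.36 to 0.58), and it turned to -0.13 without wild-type library 15 and to -0.04 without mutant library 14.

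Lama3 over Lamb3 within each library was 1.55 and 1.26 in mutants 18 and 14, against 1.20 and 1.11 in wild types 15 and 20. The ratio was thus higher in the mutant libraries without overlap, and mutant 18 was the higher of the 2. No ratio was tested, and with 2 libraries against 2 exact permutation allows no two-sided p under 0.333. Its highest value was 1.40 times its lowest, beside 1.496 times for Lama3 alone and 1.42 times for Lamb3 alone. These are ratios of counts not divided by length, so they compare libraries, not chains.

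Of the hemidesmosome integrin pair, Itga6 stayed nearly level over the libraries and Itgb4 did not. Itga6, the alpha6 subunit (chromosome 2, 71745616 to 71858416, plus strand), had 3437 and 3520.2 normalized counts in mutant libraries 18 and 14, against 3603 and 3514 in wild-type libraries 15 and 20. Its highest value was only 1.05 times its lowest, the narrowest span of the 7 genes, and the genotypes overlapped. The log2 fold change was -0.03 (SE 0.13, 95% interval -0.33 to 0.26), which leaves room for a fold between 0.798 and 1.20.

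Itgb4, the beta4 subunit, whose only known partner is alpha6 (chromosome 11, 115974709 to 116008412, plus strand), had 1007 and 1419 normalized counts in mutant libraries 18 and 14, against 1089 and 1082 in wild-type libraries 15 and 20. Mutant 14 was the highest and mutant 18 the lowest, with the wild-type libraries nearly equal between them. Its log2 fold change was 0.14 (SE 0.18, 95% interval -0.28 to 0.56) and turned to -0.11 without mutant library 14. Itgb4 over Itga6 was 0.293 and 0.403 in mutants, against 0.302 and 0.308 in wild type, so 3 libraries held one ratio and mutant 14 stood above them. A long noncoding RNA on the opposite strand, B230344G16Rik, shares 537 exonic bases with Itgb4, but was listed at no more than 8.13 normalized counts.

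Itgb6, the beta6 subunit that pairs with alphav (chromosome 2, 60598292 to 60722643, minus strand), was the lowest of the 7 genes, with 154 and 123 normalized counts in mutant libraries 18 and 14, against 166 and 146 in wild-type libraries 15 and 20. Mutant 14 was the lowest library and the genotypes overlapped. The log2 fold change was -0.18 (SE 0.24, 95% interval -0.72 to 0.37). It was the gene whose pattern was least like those of the 2 collagens, and mutant 14, which was high for 5 of the 7 genes, was its lowest library. Itgb6 over Itgb4 was 0.153 and 0.0870 in mutants, against 0.153 and 0.135 in wild type.

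The collagens spanned the widest range over the 4 libraries and matched each other closely. Col17a1, the transmembrane collagen XVII of the hemidesmosome (chromosome 19, 47646344 to 47692094, minus strand), had 2799.5 and 4040.4 normalized counts in mutant libraries 18 and 14, against 2616 and 2589 in wild-type libraries 15 and 20. Both mutant libraries were above both wild-type libraries, but mutant 18 was close to them and mutant 14 far above. The log2 fold change was 0.37 (SE 0.18, 95% interval -0.06 to 0.80, unadjusted p = 0.0806, limma adjusted p = 0.9999). It was 0.11 without mutant library 14 and 0.63 without mutant library 18.

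Col7a1, the collagen of anchoring fibrils (chromosome 9, 108953586 to 108984875, plus strand), had 2836 and 3799 normalized counts in mutant libraries 18 and 14, against 2410.5 and 2574 in wild-type libraries 15 and 20. The order was the same at the top, with mutant 14 highest and mutant 18 next. The log2 fold change was 0.40 (SE 0.17, 95% interval 0.01 to 0.78, unadjusted p = 0.0449, limma adjusted p = 0.9999), 0.19 without mutant library 14 and 0.61 without mutant library 18. Col17a1 over Col7a1 was 0.987 and 1.06 in mutants, against 1.09 and 1.01 in wild type, a span of 1.10 times where each gene alone spanned 1.56 and 1.58 times. Col17a1 over Itgb4, its neighbour in the hemidesmosome, was 2.78 and 2.85 in mutants, against 2.40 and 2.39 in wild type, without overlap. This ratio was not tested either.

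**Figure D2:**
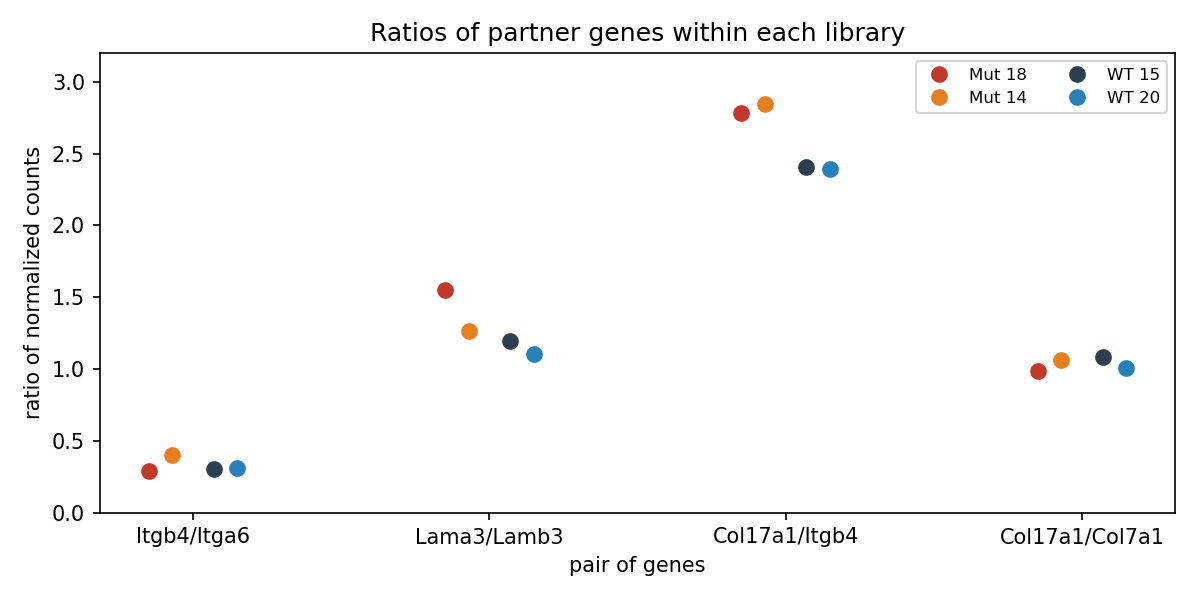
Ratio of normalized counts of the named pairs (vertical axis, from 0), 1 point per library, mutant libraries left of wild-type libraries within each pair. Col17a1/Col7a1 stays nearly level, Lama3/Lamb3 and Col17a1/Itgb4 lie higher in the mutant libraries, and Itgb4/Itga6 is raised in mutant 14 alone. No ratio was tested.

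Start-site windows of the 2 collagens are shown because their patterns were the most alike, with those of Lamb3 and Itgb6 for contrast. RefSeq windows on GRCm38.p6 were at hand for 4 of the 7 genes, Lamb3 and Itgb6 with a pair of starts each. The 250 bases before the start are given on the strand of the gene, 5′ to 3′, from chr19:47692043-47692292 (minus strand) for Col17a1, chr9:108953336-108953585 (plus strand) for Col7a1, chr1:193301744-193301993 (plus strand) for the first Lamb3 start and chr2:60722604-60722853 (minus strand) for the first Itgb6 start. Capitals mark E-boxes, the CANNTG motif of basic helix-loop-helix factors, the family of Ascl5. The whole Lamb3 window and the ends of the Col17a1 and Itgb6 windows lie inside the gene spans from GENCODE given above.
Col17a1: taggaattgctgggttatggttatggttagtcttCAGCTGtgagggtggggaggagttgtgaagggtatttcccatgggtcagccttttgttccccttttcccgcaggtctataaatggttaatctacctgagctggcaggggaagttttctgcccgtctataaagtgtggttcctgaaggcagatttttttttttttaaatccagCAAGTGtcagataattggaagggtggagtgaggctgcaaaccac
Col7a1: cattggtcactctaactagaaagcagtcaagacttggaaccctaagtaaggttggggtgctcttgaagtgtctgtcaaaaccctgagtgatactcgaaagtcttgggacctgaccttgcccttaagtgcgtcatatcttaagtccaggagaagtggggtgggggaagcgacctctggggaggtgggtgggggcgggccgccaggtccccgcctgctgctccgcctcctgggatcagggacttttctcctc
Lamb3: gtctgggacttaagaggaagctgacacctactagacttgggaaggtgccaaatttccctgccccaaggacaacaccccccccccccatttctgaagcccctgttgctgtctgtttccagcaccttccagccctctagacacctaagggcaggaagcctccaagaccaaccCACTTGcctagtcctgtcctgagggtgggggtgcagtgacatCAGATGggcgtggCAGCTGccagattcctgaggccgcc
Itgb6: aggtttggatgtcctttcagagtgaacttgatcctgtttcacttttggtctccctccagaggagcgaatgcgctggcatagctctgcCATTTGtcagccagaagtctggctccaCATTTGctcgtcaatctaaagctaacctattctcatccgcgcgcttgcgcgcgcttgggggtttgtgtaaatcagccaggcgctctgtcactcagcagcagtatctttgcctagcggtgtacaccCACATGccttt

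The 2 collagens differed in these motifs. The Col17a1 window held 2 E-boxes, of which the one that begins 216 bases before the start reads CAGCTG, the form preferred by Achaete-scute proteins, and the Col7a1 window held 0 E-boxes. The Lamb3 window shown held 3 E-boxes, 1 of them CAGCTG at 25 bases before the start, and the Itgb6 window shown 3, none of that form. The windows of the other starts, not shown, held 1 E-box for Lamb3 and 3 for Itgb6, none of them CAGCTG. On both strands, 66.2% of 32851 windows of the same length in the table held CANNTG and 13.0% held CAGCTG, which is one case of CANNTG. The AP-1 motif TGANTCA was in none of the 4 windows shown and in 6.75% of all windows. The GC box GGGCGG was in the Col7a1 window and in 32.7% of all. TATAAA was in the Col17a1 window at 2 places and in 12.4% of all. No binding was measured, so these matches describe letters and not sites.

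Levels between genes were compared per kilobase of the longest protein-coding GENCODE M21 transcript. On that scale Itga6 was highest (807 ± 13.6 in mutant and 826 ± 14.5 in wild type, normalized counts per kilobase, SD, n = 2 each), followed by Col17a1 (612 ± 157 in mutant and 466 ± 3.40 in wild type), Col7a1 (359 ± 73.6 in mutant and 269 ± 12.5 in wild type) and Itgb4 (195 ± 46.9 in mutant and 175 ± 0.767 in wild type). Lamb3 was at 150 ± 22.3 in mutant and 140 ± 32.6 in wild type, and Itgb4 was above it in each of the 4 libraries (162 and 229 against 134 and 166 in mutants 18 and 14, 175 and 174 against 117 and 163 in wild types 15 and 20). Lama3 was at 96.3 ± 0.484 in mutant and 73.9 ± 13.1 in wild type, and Itgb6 was lowest at 28.8 ± 4.47 in mutant and 32.5 ± 3.08 in wild type. The place of Lama3 depends on its isoform, since its transcripts measure 10.55 and 5.55 kilobases, and over all 4 libraries its mean is 85.1 per kilobase of the long form and 162 of the short one, beside 145 for Lamb3 in its longest form. Itga6 was thus more than 4 times Itgb4 per kilobase (816 and 185 over all libraries).

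**Figure D3:**
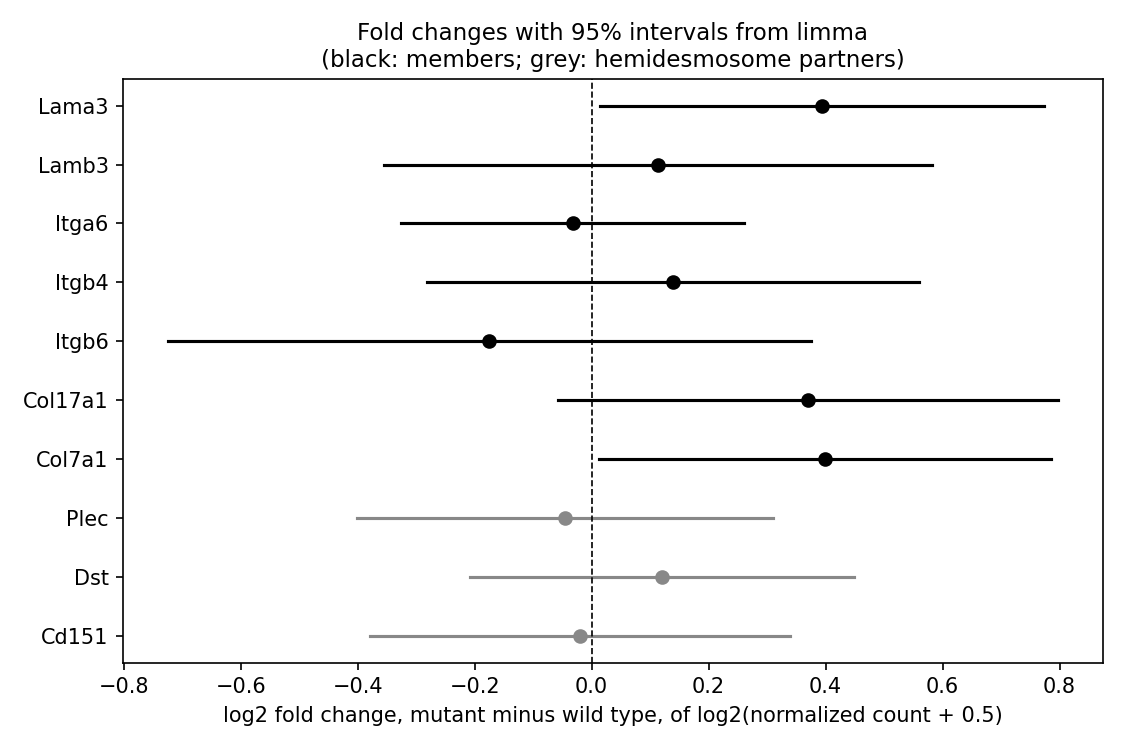
Log2 fold change, mutant minus wild type, of log2(normalized count + 0.5) on the horizontal axis for the 7 genes (black) and 3 hemidesmosome partners (grey), with 95% intervals from limma as lines. The intervals of Lama3 and Col7a1 lie above 0 before adjustment for multiple tests, and the others cross it.

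The plaque proteins and Cd151 differed between genotypes by no more than the libraries of one genotype differed. Plec, the plaque protein plectin, had 7082 and 7806 normalized counts in mutant libraries 18 and 14, against 8354 and 7046 in wild-type libraries 15 and 20 (log2 fold change -0.05, SE 0.15, 95% interval -0.40 to 0.31). Dst, dystonin, had 5025 and 4937 in mutants, against 4230 and 4964 in wild type (0.12, SE 0.14). The tetraspanin Cd151, which sits with laminin-binding integrins, had 1096 and 1126 in mutants, against 1007 and 1259 in wild type (-0.02, SE 0.15). Of these 3, 0 passed the test and all overlapped between genotypes.

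Neighbouring gene groups were read the same way, and 0 of their members passed over all genes. Of all genes fitted, 13.4% were higher and 14% lower without overlap. Of 26 other basement membrane genes (laminin chains, nidogens, type IV collagens and others) 14 were higher and 12 lower in mutant (median log2 fold change 0.01; 4 higher and 22 lower with either epithelial scaling, on which the median of all genes is itself shifted to -0.44 or -0.36), with no overlap in 2 higher and 2 lower. The smallest p among them was that of Lama1, the alpha1 laminin chain, at 168 and 182 in mutants, against 303 and 239 in wild type (log2 fold change -0.62, SE 0.21), and, among those higher, of Lamc3 (0.46, SE 0.21). Of 14 other integrin subunits and activators 7 were higher and 7 lower (median -0.02; 0 higher and 14 lower with either epithelial scaling). The smallest p in each direction belonged to Itga8 (0.36, SE 0.14; turned to -0.08 and -0.01 with scaling to basal or to other epithelium markers) and Itgb5 (-0.22, SE 0.14).

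The list around alphavbeta6 and TGF-beta lay mostly lower in mutants. Of its 14 genes 11 were lower and 3 higher in mutant (median -0.12, and 14 lower and 0 higher with either epithelial scaling). There was no overlap in 4 lower and 1 higher, where 14% and 13.4% of all genes fitted were so. Tgfb1, a latent ligand that alphavbeta6 activates, was at 1735 and 1681 in mutants, against 2154 and 2254 in wild type (log2 fold change -0.37, SE 0.13, unadjusted p = 0.0207, limma adjusted p = 0.933). Among those higher, Smad2, a carrier of TGF-beta signals to the nucleus, had the smallest p (0.08, SE 0.13). Of 10 genes for proteases and protein folding factors 6 were lower and 4 higher (median -0.10, and 10 lower and 0 higher with either epithelial scaling). There was no overlap in 5, all lower, where 14% of all genes fitted were lower without overlap. Bmp1, a protease that trims laminin-332 and procollagen VII, was at 7083 and 6958 in mutants, against 8714 and 7922 in wild type (-0.24, SE 0.14), and its relative Tll1 had 0.15 (SE 0.24).

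Desmosome genes, which join epithelial cells to each other, had a median log2 fold change of 0.46, beside 0.14 for the 7 anchoring genes. The fold changes of single genes overlapped between these lists. Of 10 desmosome genes, 9 were higher in mutant (5 with scaling to equal basal markers and 6 with scaling to other epithelium markers). Of these genes 8 were higher without overlap, where 13.4% of all genes fitted were, and 8 were highest in mutant 14. Perp, a desmosomal membrane protein, was at 10375 and 13727 in mutants, against 6537 and 7780 in wild type (0.74, SE 0.18, unadjusted p = 0.00418, limma adjusted p = 0.557), while Dsg2 was lower (-0.37, SE 0.21). The difference between the desmosome genes and the 7 anchoring genes was not tested.

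Epithelial markers also differed between libraries. The 5 markers of epithelium of any kind, Cdh1, Epcam, Esrp1, Esrp2 and Grhl2, summed to 4949 and 8133 in mutant libraries 18 and 14, against 4808 and 4963 in wild-type libraries 15 and 20, so mutant 14 alone stood out. The 4 basal markers, Krt5, Krt14, Krt15 and Trp63, summed to 37813 and 45928 in mutants, against 23215 and 38308 in wild type, so wild type 15 alone was low. All 5 and all 4 were detected in every library and were highest in mutant 14. So were 5 of the 7 anchoring genes, where 25.9% of all genes fitted were. Itga6 and Itgb6 were highest in wild type 15. The 11 suprabasal and cornifying markers summed to 161095 and 249424 in mutants, against 105308 and 92123 in wild type. In bulk tissue, fewer cells of a type and less RNA per cell cannot be told apart, and the part of epithelial content in the differences above was not tested.

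**Figure D4:**
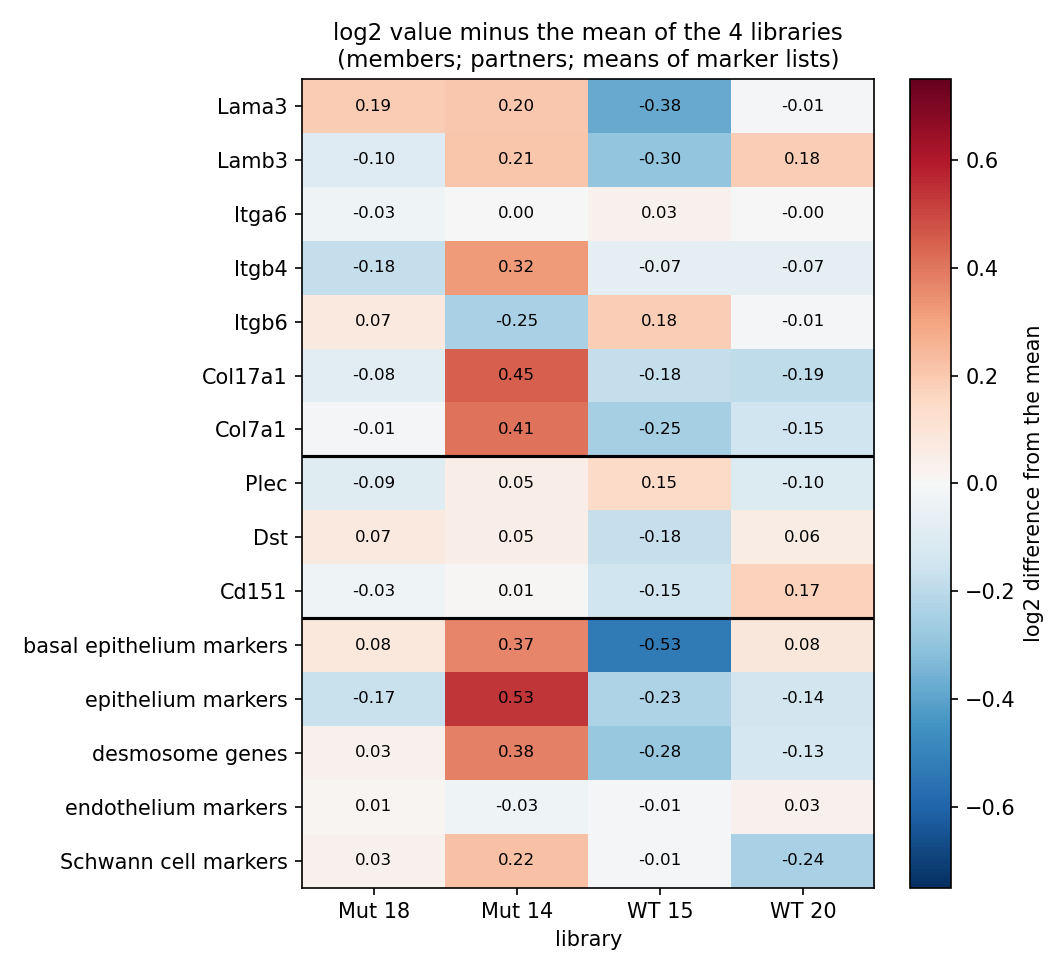
Difference of each log2 value from its mean over the 4 libraries (colour and printed number, log2 units), by library, for the 7 genes, 3 partners and the mean of 5 marker lists. Mutant 14 is high for Col17a1 (0.45), Col7a1 (0.41) and epithelium markers (0.53), wild type 15 is low for Lama3 (-0.38) and basal markers (-0.53), and Itga6 departs from its mean by no more than 0.03 after rounding.

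Set against the basal markers, none of the 7 genes lay higher in both mutant libraries. As a percent of the geometric mean of Krt5, Krt14, Krt15 and Trp63, Lama3 was at 13.7% and 11.3% in mutant libraries 18 and 14, against 14.04% and 11.8% in wild-type libraries 15 and 20. Itga6 was at 46.5% and 39.0% in mutants, against 74.2% and 47.4% in wild type, and Lamb3 at 8.84% and 8.95% in mutants, against 11.7% and 10.7% in wild type. These 2 were lower without overlap, 5 overlapped, and wild type 15 was the highest library for 7 of 7. The marker mean itself was lowest in wild type 15 (4853, against 7394 and 9020 in mutants 18 and 14 and 7412 in wild type 20). A gene that did not follow the markers would thus tend to be highest there. With scaling to these markers the median log2 fold change of all genes was -0.44. The share of all genes without overlap on this scale was not computed.

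Set against the other epithelial markers, Itga6 (419% and 264% in mutants, against 459% and 421% in wild type) and Itgb4 (123% and 107% in mutants, against 139% and 129% in wild type) were lower without overlap and the other 5 genes overlapped. With scaling to these markers the median log2 fold change of all genes was -0.36, and the share of all genes without overlap was not computed. Col17a1 was at 341% and 303% in mutants, against 333% and 309.8% in wild type. Col7a1 was at 346% and 285% in mutants, against 307% and 308% in wild type. The excess of mutant 14 in the normalized counts of these collagens was not present on this scale. The marker mean that divides them was itself highest in mutant 14 (1331, against 820 in mutant 18, 785 in wild type 15 and 836 in wild type 20). What raised either was not tested. Mutant 14 was the lowest library for 7 of 7, and a gene that did not follow the markers would tend to be lowest there.

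**Figure D5:**
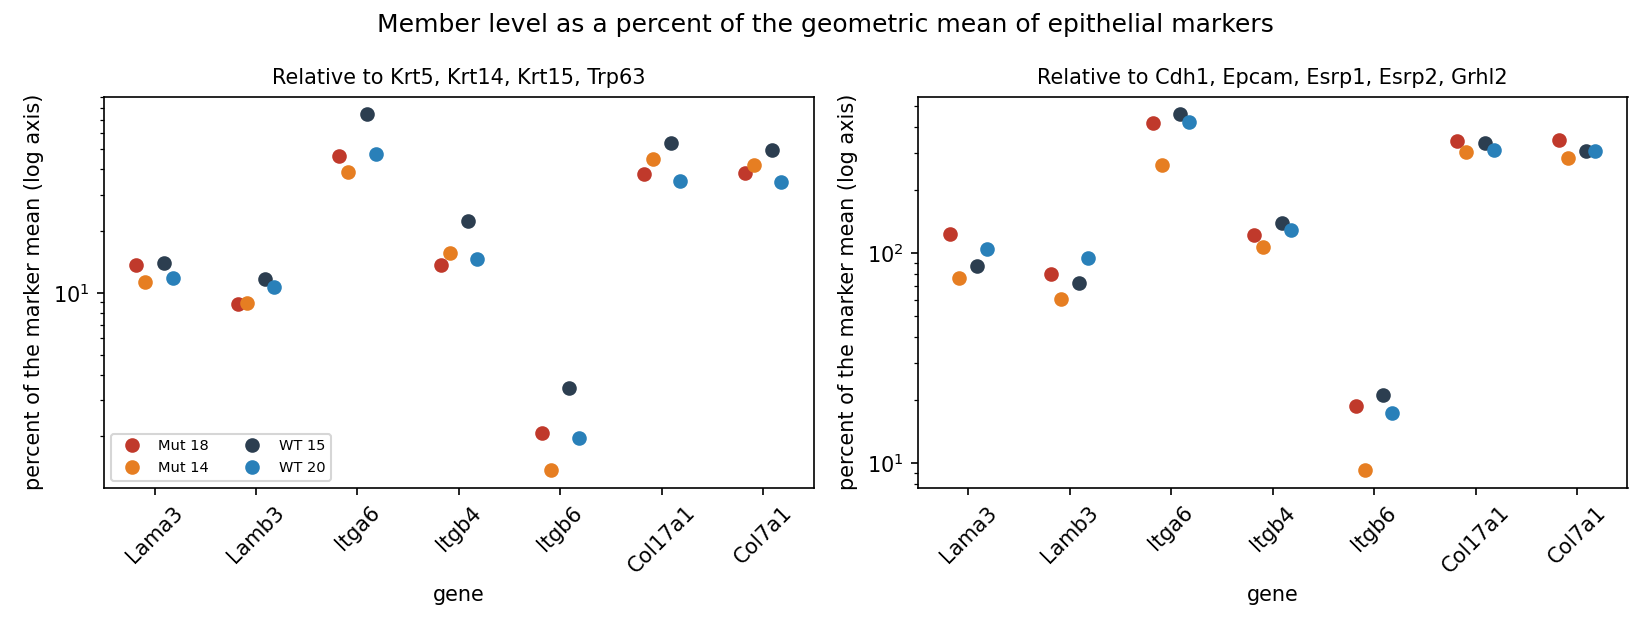
Level of each gene as a percent of the geometric mean of 4 basal markers (left) or of 5 markers of epithelium of any kind (right), log axes, 1 point per library, mutant libraries left of wild-type libraries. Wild type 15 is highest for all 7 genes on the left, and mutant 14 is lowest for all 7 on the right. The marker mean itself is lowest in wild type 15 on the left and highest in mutant 14 on the right.

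Other cell types that express alpha6 or beta4 integrins were followed by their own markers. The 7 endothelial markers summed to 12035 and 11555 in mutants, against 12094 and 11778 in wild type. The 7 Schwann cell markers summed to 3301 and 4041 in mutants, against 3312 and 2624 in wild type. Of the Schwann cell markers 3 of 7 were higher without overlap, where 13.4% of all genes fitted were. All markers of both lists were detected in every library. What share of Itga6 or Itgb4 RNA came from these cells was not tested.

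Likeness of pattern was measured as the largest gap, over the 4 libraries, between log2 profiles centred on their own mean. Among the 7 genes the closest pair was Col17a1 and Col7a1 (largest gap 0.07), then Itgb4 and Col17a1 (0.13) and Itgb4 and Col7a1 (0.18). The most distant was Itgb6 and Col17a1 (0.70), and the laminin chains Lama3 and Lamb3 were 0.29 apart. Among 12166 genes with a mean of at least 100, the nearest to Lama3 were Ier3 (0.05) and Lgals3 (0.05), to Lamb3 Dph5 (0.05) and Phlda3 (0.05), and to Itgb4 Cbr2 (0.01) and Reep4 (0.02). The nearest to Col17a1 were Cltb (0.03) and Slc27a4 (0.03), and to Col7a1 Cracr2b (0.04) and the oral keratin Krt4 (0.04), which had 17506 and 23159 normalized counts in mutants, against 15496 and 16118 in wild type. For Itga6 they were Pik3r4 (0.0053) and Nploc4 (0.0061), for Itgb6 Crat (0.01) and Btnl9 (0.03), and for the mean profile of the 7 genes Slc45a3 (0.01), Naaa (0.01) and Borcs6 (0.02). These names describe a pattern over 4 libraries and carry no test.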

How the data were processed

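For every gene the deposited file gives a signal per library, namely a normalized count that the authors scaled between libraries. Per the submitters' processing notes, DESeq2 and build mm10 were used; aligner, counter, strand setting and annotation: not given in the sources used here. Per the labels, the libraries were stranded and polyadenylated RNA. Whole reads could not be recovered, as 32.0% to 34.6% of nonzero values were multiples of each library's commonest low value (tolerance 0.1), so depth is unknown. After a log2(value + 0.5) transform, rows averaging 1 or more were fitted with limma 3.58.1 in R 4.3.3 (mean-variance trend, 2 residual degrees of freedom), and p-values were adjusted by Benjamini-Hochberg over 17979 genes at a threshold of 0.05. The fit was checked on simulated data. Libraries were checked for duplicates by chi-square, whose ratio to its degrees of freedom was 16.5 or more for each pair. Lengths and positions came from GENCODE M21 (GRCm38, the assembly mm10 denotes) and start-site windows from RefSeq. The members, gene lists and motifs were chosen with earlier results of these data known. Genes named outside the 7 were 3 partners, the smallest p in each direction of each pathway list, and the nearest patterns; some genes these rules take are not reported here. Alternatives covered scaling, filter, pseudocount, variance model, threshold and each library left out.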

Additional observations from a re-analysis of the deposited data

How the results depend on the processing

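In 16 alternatives to the fit, 0 of the 7 genes were called, and Itga6 and Itgb6 kept a negative sign in all of them. No paired analysis was possible because the library numbers are not shared between genotypes. Scaling to equal basal epithelium markers moved the median of all genes to -0.44, and scaling to other epithelium markers moved it to -0.36, so directions on those scales are relative to epithelium. With basal scaling 0 genes of the 7 were higher and 0 lay above wild type without overlap, their median log2 fold change was -0.31, and the values turned for Lama3 (-0.051), Lamb3 (-0.33), Itgb4 (-0.31), Col17a1 (-0.075), Col7a1 (-0.047), Dst (-0.32), Itga8 (-0.083), Smad2 (-0.36) and Tll1 (-0.29). With the other epithelial scaling 3 were higher and the median was -0.23. On that scale 0 lay above wild type without overlap and 2 lay below. There Lamb3 (-0.25), Itgb4 (-0.23), Dst (-0.25), Itga8 (-0.0053), Smad2 (-0.28) and Tll1 (-0.21) turned. Each library was also left out in turn, which leaves 1 residual degree of freedom. The median then ranged from -0.017 (without mutant 14) to 0.39 (without mutant 18), and the number higher from 3 to 5. The number above wild type without overlap ranged from 3 to 5, and the number below was not counted. Separation comes more easily with 1 library in a group, and the share of all genes was not computed. In those fits Lamb3 ranged from -0.13 to 0.35, with a turned sign (-0.039) without mutant 14 and (-0.13) without wild type 15, and Itgb4 from -0.11 to 0.39, turned without mutant 14. Plec ranged from -0.17 to 0.078, turned without wild type 15 or mutant 18 (0.025), Cd151 from -0.18 to 0.14 and Tll1 from -0.11 to 0.42, both turned without wild type 20. Among all genes fitted, 2 were called, 1 with no filter or no variance trend, 4 with pseudocount 1, robust moderation or a threshold of 0.1, 51 with basal and 62 with other epithelial scaling, and 0 to 5 with a library left out; the cause was not tested. Depth behind single values is unknown, which limits the precision of Itgb6 most, the lowest of the 7.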
